A study of Mus musculus with 25 samples.

Results

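The regions described here are 215 autosomal 1000-base tiles of the mouse genome that were more methylated in hematopoietic stem cells (HSCs) recovered after transplantation of 10 cells, whether the donor cells were young or old. They were chosen from the measured levels themselves. A tile entered when each library made after transplantation of 10 young HSCs lay at least 8 percentage points above each young library, and each library made after 10 old HSCs lay at least 8 points above each old library. The levels were methylated reads over total reads, and 99475 autosomal tiles with 3 or more CpGs of at least 5 reads in those 9 libraries could be read, so the members are 0.216% of them. The differences between these 4 groups are therefore a property of the choice and carry no test here.

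DNA methylation was measured by reduced representation bisulfite sequencing, which cuts DNA at a CpG-containing site and reads bisulfite-converted fragments, so that CpG-rich sequence is over-represented. All 25 libraries came from HSCs of C57Bl/6 mice. Fetal HSCs were from liver at embryonic day e14.5 (n = 2), young HSCs from bone marrow at 3.5 months (n = 2) and old HSCs from bone marrow at 25 months (n = 2). The 5-fluorouracil (5-FU) groups were bone marrow HSCs labelled 3.5 months + 6 months, after 0 doses (n = 3), 2 doses (n = 3) or 4 doses (n = 2). The transplanted groups were HSCs from bone marrow after transplantation of 10 (n = 3), 50 (n = 1) or 500 (n = 1) young HSCs, or of 10 (n = 2), 50 (n = 1) or 500 (n = 3) old HSCs. The labels used here give neither the recipients' age nor the time after transplantation, and do not say whether the libraries of a group came from different animals. The p-values below thus measure the spread between these libraries, which may be technical. The assay reads no RNA, so the identity of the sorted cells could not be checked against marker genes.

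In mammals, DNA methyltransferases place methyl groups on the cytosines of CpG pairs, and the maintenance enzyme copies the pattern to the new strand after each division. CpG-rich promoters are mostly unmethylated in somatic cells, most other CpGs are methylated, and regions of intermediate level often lie in regulatory sequence that differs between cell types. HSCs divide rarely in the adult marrow, divide many times when few cells must rebuild the blood of a recipient, and are also driven to divide when 5-FU kills cycling blood cells.

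Few members lay at a start of transcription that could be placed, and for 2 of them the promoter CpGs that were read are shown. The starts were placed by matching the CpG spacing of RefSeq promoter windows (build GRCm38.p6, 250 bases before to 50 after the start) to the CpG positions of the mm9 files. Below are the windows of Nrsn2, which encodes the neuronal vesicle protein neurensin 2, and of Palm3, which encodes a membrane-associated protein of the paralemmin family. The members at these starts are read mostly from CpGs inside the window, and they were picked after their values were seen. The same holds for the CpGs of the member at Ptms, whose 4 read CpGs all lie in its window, which is not printed. Capitals mark the CpGs that were read.
Nrsn2: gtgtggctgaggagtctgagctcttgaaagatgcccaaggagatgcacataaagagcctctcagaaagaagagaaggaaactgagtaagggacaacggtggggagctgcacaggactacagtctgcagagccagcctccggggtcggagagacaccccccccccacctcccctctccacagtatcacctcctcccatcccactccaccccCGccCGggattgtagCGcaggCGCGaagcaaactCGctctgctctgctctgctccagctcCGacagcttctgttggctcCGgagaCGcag
Palm3: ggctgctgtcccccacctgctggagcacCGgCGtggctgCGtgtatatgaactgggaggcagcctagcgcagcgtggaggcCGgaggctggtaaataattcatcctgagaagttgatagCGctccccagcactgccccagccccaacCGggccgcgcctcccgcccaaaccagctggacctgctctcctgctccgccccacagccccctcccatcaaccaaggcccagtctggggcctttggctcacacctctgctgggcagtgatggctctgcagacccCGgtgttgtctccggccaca
The Nrsn2 window was placed at chr2:152202292-152202591 (mm9) on the minus strand and holds 12 CpGs, of which 9 were read. The Palm3 window was placed at chr8:86545123-86545422 on the plus strand and holds 14 CpGs, of which 7 were read.

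Sequencing depth ran from 22835325 to 105187091 reads on CpGs and the median CpG had 10 to 54 reads, depending on the library. Some libraries stood apart. The 0-dose libraries differed from the others in their deepest CpG (63841 to 74120 reads, against at least 101345 elsewhere). The library after 500 young HSCs and replicate 3 after 500 old HSCs had lower levels than the other transplanted libraries over the members, as described below. They were also lower over 107 CpG-rich tiles of intermediate level chosen without regard to the members, at 43.1% and 44.3%, where the 4 other transplanted libraries not used in the choice were at 51.2 to 53.4%. As an alternative, each library's mean shift over the 107 tiles, its library offset, was removed. The member medians of the 2 low libraries were then 34.5% and 33.8%, and those of the 4 others 39.0 to 41.8%. The part of this difference in the results was not tested further. Calls that change when both low libraries are left out are given with that value, an alternative added after seeing the data.

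Over all members, the median level was 17.6% and 17.9% in the young libraries and 18.5% and 18.8% in the old ones. It was 43.9 to 46.1% after 10 young HSCs and 43.8% and 48.1% after 10 old HSCs, as the choice required. Fetal HSCs, which played no part in the choice, were at 19.7% and 20.9%. The single library after 50 young HSCs had a median of 45.3% and the one after 50 old HSCs 44.0%, both at the level of the 10-cell libraries. After 500 cells the libraries divided: 2 of the 3 from old HSCs were at 41.5% and 45.3%, while the third was at 29.7% and the library from young HSCs at 29.2%. The 0-dose libraries, at 25.8, 27.5 and 32.5%, lay above the young ones. The rule favours low values in the young libraries, and how far this difference follows from the choice was not tested. The range of the 0-dose libraries held the 2 libraries at 29.2% and 29.7%, and the other transplanted libraries lay above it. The 2-dose libraries were at 29.3 to 33.5% and the 4-dose libraries at 25.0% and 33.2%. Over all tiles of the rule the order was reversed: the median tile was at 71.1 to 78.3% in the transplanted libraries, against 82.4% and 85.0% in the young ones. By the mirrored rule, 7218 tiles (7.26%) were at least 8 points lower after both 10-cell transplants.

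**Figure D1:**
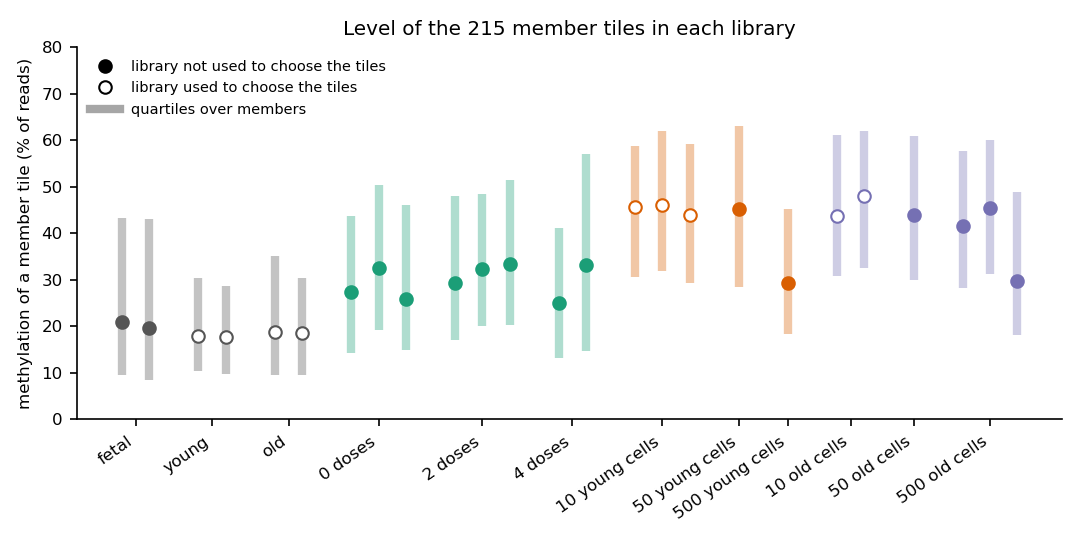
Median methylation of the member tiles in each library (points; vertical bars run from the first to the third quartile over tiles), as percent of reads, with open points for libraries that chose the tiles. The libraries after 50 cells and 2 of the 3 after 500 old HSCs lie at 41.5 to 45.3%, and the 500 young library and the third 500 old library near 29%.

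Of the 849 tiles that met the rule after 10 young HSCs, 25.3% were members, and of the 623 that met it after 10 old HSCs, 34.5% were. The smaller of a member's 2 margins had a median of 12.4 points and a range of 8.01 to 46.3. Just inside the threshold were chr17:70251001-70252000 (8.01), chr7:52882001-52883000 (8.07) and chr7:74588001-74589000 (8.08). Just outside were chr2:140365001-140366000 (7.97), chr8:125200001-125201000 (7.93) and chr2:31664001-31665000 (7.90). The second of these outer tiles lies 2 kb from the member beside Cbfa2t3 described below. The median member had 5 read CpGs, as did the median tile, and 115 reads in its thinnest library of the rule, against 104 for all tiles. A value in all 25 libraries existed for 128 members.

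Members with 3 or 4 read CpGs made up 49.8%, against 48.2% of all tiles, and those with 30 or more made up 0.93%, against 6.15%. The fetal level, which the rule did not use, was distributed differently over members and over all tiles. Between 20 and 50% in fetal HSCs were 63 members (29.3%), a band that held 4.35% of all tiles. Below 20% were 103 members (47.9%, against 26.9% of tiles), and at 80% or more were 15 members (6.98%, against 56.1%). Since a tile must start low enough to gain, the low and intermediate levels in young and old HSCs follow in part from the rule. At 80% or more in young HSCs were 0 members, against 55.3% of all tiles. How far the fetal distribution follows from this was not tested.

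Of the members, 11 (5.12%) lay within 1 kb of a placed start, where 10.8% of all tiles lay. Another 22 (10.2%, against 4.50% of tiles) lay at 1 to 5 kb and 38 (17.7%, against 10.7%) at 5 to 20 kb. A placed start is the nearest of 7991 genes whose promoter could be matched, and need not be the nearest gene. Of 32851 promoter windows, 15735 had too few CpGs to be placed, so a member at such a start was not seen as one. No start was placed on chromosome 18, which held 6 members (2.79%, against 3.12% of tiles). The exonic or intronic position of the tiles is not given, since no annotation of mm9 was used here. Members were found on all 19 autosomes, with 20 each on chromosomes 4 and 11 (9.30% of members each, against 7.32% and 6.74% of all tiles). The largest share of a chromosome's own tiles was 0.335%, on chromosome 14. There were 10 runs of neighbouring members, with starts at most 2 kb apart, holding 21 members, and the longest held 3.

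Whether the members were also higher in transplanted libraries that had not chosen them was tested with the 6 libraries after 50 or 500 cells. They were taken as 1 group against the 0-dose libraries, which were also outside the choice. The test was a quasi-binomial fit of methylated and total reads in each tile, with Benjamini-Hochberg adjustment over all 74678 tiles tested. A tile was called at an adjusted p below 0.05 and a difference of at least 10 points. Levels in the fit are over the CpGs read in all libraries of the fit and can differ slightly from the levels by library. The group pools donor age and cell number, which 3 of its 4 kinds of library could not separate, having 1 library each.

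Of the 169 members that could be tested, 39 (23.1%) were called higher in the transplanted group, against 0.544% of all tiles. Only 1 member was called lower, against 4.9% of all tiles. The median difference over the tested members was 8.50 points (quartiles 2.66 and 15.2), and over all tiles it was -1.71 points. All 6 transplanted libraries lay above all 3 0-dose libraries in 34 members (20.1%), against 1.75% of all tiles. With the 2 low libraries after 500 cells left out, a choice made after seeing the data, 61 members were called higher. Without 0-dose replicate 1 the number was 22, and in a fit of all 25 libraries it was 17.

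Taken singly, the libraries after 50 young and 50 old HSCs each lay above every 0-dose library in 67.1% of the members with a value. Over all tiles the shares were 9.22% and 7.94%. For the libraries after 500 old HSCs the shares were 62.9, 71.8 and 31.8% of members, against 12.4, 13.1 and 12.6% of all tiles. The library after 500 young HSCs had 31.4% of members above, against 15.1% of all tiles. Each of the 6 thus had a larger share among members than among all tiles, and of the 6 the low libraries had the smallest shares among members. A larger share among members was not particular to transplanted libraries. The 2-dose libraries had 26.2, 34.9 and 37.3% of members above and the fetal libraries 27.1% and 24.7%, each more than among all tiles. Both 4-dose libraries had smaller shares among members than among all tiles. These counts and the tests against 0 doses all share the same 3 control libraries.

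The 3 libraries after 500 old HSCs are the one replicated transplanted group outside the choice. Against 0 doses, 17 of the 169 members were called higher (0.261% of all tiles) and 0 lower (1.56% of all tiles). An unadjusted p below 0.05 was found for 78 members, 68 of them higher, and for 16.2% of all tiles. Limma called 12 members higher. The median difference was 8.46 points over the members and -1.45 over all tiles. All 3 libraries lay above all 3 0-dose libraries in 50 members, against 4.62% of all tiles. The number of calls rested on single libraries. It was 1 without 500 old replicate 1, 7 without replicate 2, 9 without 0-dose replicate 1 and 29 without 0-dose replicate 2.

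**Figure D2:**
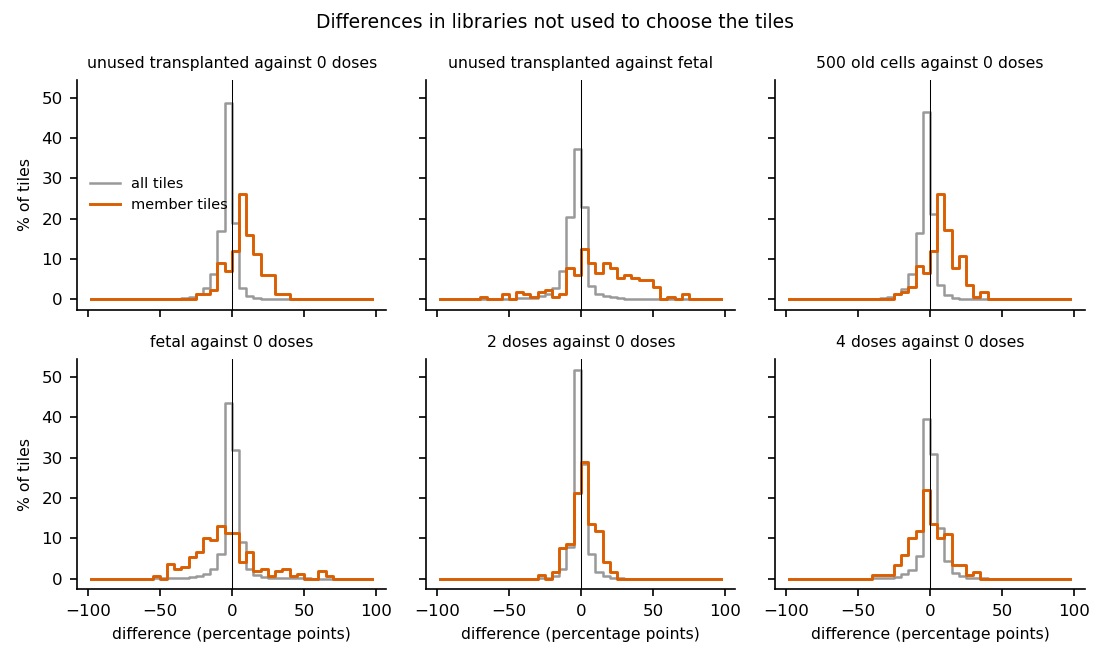
Distribution of the difference in methylation (percentage points, horizontal) over all tiles (grey) and over member tiles (orange), as percent of tiles, for the comparisons among libraries that did not choose the tiles. The members are shifted to higher values after transplantation (median 8.50 points against 0 doses), and to lower values in fetal HSCs against 0 doses (median -6.67).

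The largest difference among the called members was at chr8:73340001-73341000, 24.2 kb from the placed start of Mast3, a gene for a microtubule-associated serine/threonine kinase. Its level was 78.8% after 50 young, 68.1% after 500 young, 73.9% after 50 old, and 75.5, 72.9 and 80.5% after 500 old HSCs. The 0-dose libraries were at 52.4, 24.1 and 54.7%, so the groups did not overlap. In the fit the transplanted mean was 77.0% ± 3.26 (SD, n = 6) and the 0-dose mean 38.6% ± 15.6 (SD, n = 3), a difference of 38.4 points (adjusted p = 0.00024). This tile was almost unmethylated in fetal HSCs, at 3.72% and 5.56%, and stood at 44.1% and 44.8% in young and 60.6% and 59.0% in old HSCs. Against fetal HSCs the difference was 71.8 points (adjusted p = 3.5e-09), the largest of any member called higher in that comparison.

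The tile chr8:87308001-87309000 had 26 read CpGs and 455 to 2534 reads in the libraries of the choice, among the best measured of the leading members. Fetal libraries were at 2.86% and 2.90%, young at 17.5% and 18.2%, old at 27.9% and 17.1%. After 10 young HSCs it was at 70.9, 61.9 and 59.9%, and after 10 old HSCs at 60.7% and 69.5%. The 50-cell libraries were at 65.0% (young) and 63.7% (old), and the 500-cell libraries at 42.6% (young) and 60.5, 61.8 and 51.8% (old). The 0-dose libraries were at 21.8, 24.5 and 17.8%, all below every transplanted library. The difference in the fit was 35.7 points (adjusted p = 4.7e-05), from 20.5% ± 3.29 (SD, n = 3) to 56.2% ± 7.43 (SD, n = 6). Its placed neighbour is Syce2, a gene of the meiotic synaptonemal complex, but the distance is 87.5 kb. The single CpGs of this tile had means of 26.2 to 84.0% in the 6 transplanted libraries and of 0.0 to 41.9% in the 0-dose libraries.

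At chr8:107792001-107793000 the 14 CpGs were at 1.70% and 2.92% in fetal HSCs, 10.8% and 9.96% in young HSCs and 10.7% and 10.8% in old ones. The libraries after 50 cells were at 47.3% (young) and 48.1% (old), and those after 500 cells at 35.2% (young) and 52.7, 46.1 and 27.2% (old). With 0 doses the libraries were at 6.40, 26.5 and 18.6%, below all 6. The difference was 25.6 points (adjusted p = 0.0026).

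The tile chr5:98364001-98365000, also with 26 CpGs, was at 5.48% and 1.96% in fetal HSCs and between 16.5% and 18.5% in young and old HSCs. After 50 and 500 cells it was at 39.6 to 57.7%, above the 0-dose libraries at 25.5 to 32.5%. The difference was 19.7 points (adjusted p = 0.0052). In both of these tiles the library after 500 young HSCs and replicate 3 after 500 old HSCs were the lowest of the 6.

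Some tiles with large margins were not called. The tile with the largest margin (46.3), chr11:115969001-115970000, lies 2.0 kb from the start of Trim47, which encodes a ubiquitin ligase of the tripartite motif family. The 6 transplanted libraries outside the choice ranged from 37.4 to 89.8% there and the 0-dose libraries from 32.8 to 64.4%, so the groups overlapped (difference 17.1 points, adjusted p = 0.23). Without the 2 low libraries the difference was 29.3 points and the tile was called. At chr13:52212001-52213000 fetal HSCs were at 94.7% and 92.4%, young at 14.1% and 17.6% and old at 7.81% and 14.1%. The transplanted libraries outside the choice were at 18.3 to 53.0%, and the tile could not be tested because 0-dose replicate 1 had no value. Besides the tile near Cbfa2t3 described below, 3 leading members were called with values that single libraries could undo. At chr12:17009001-17010000, 2.6 kb from Pqlc3, a gene of a membrane transporter family, the difference was 16.4 points (adjusted p = 0.048), and 8.82 points without 0-dose replicate 1, which was at 27.8% beside 61.7% and 31.9%. At chr13:63373001-63374000 it was 22.2 points (adjusted p = 0.024), and 14.9 points and not called without the same replicate. At chr7:86542001-86543000 it was 19.4 points (adjusted p = 0.029), with 0-dose libraries at 34.2 to 45.1% and transplanted ones at 53.7 to 68.3%, and was not called without 0-dose replicate 1 or 3 or 500 old replicate 1. At chr10:69615001-69616000 the difference of 23.5 points was not called (adjusted p = 0.1). It was called without 500 old replicate 3 (27.4 points), without the 500 young library (27.3 points), without both (33.1 points) and with the library offset removed (23.7 points). At chr12:42041001-42042000 no 0-dose library had a value, and the 6 transplanted libraries were at 38.4 to 65.2%.

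Large differences with wide spread were found at 2 more members. At chr14:64632001-64633000 (3 CpGs) the transplanted mean was 34.7 points above 0 doses (adjusted p = 0.019), but 23.9 points and not called without 0-dose replicate 3. At chr8:87245001-87246000 the libraries after 500 old HSCs, at 88.7, 87.9 and 81.4%, were 32.3 points above the 0-dose libraries at 44.8, 54.0 and 62.1% (adjusted p = 0.015). That call was lost without 500 old replicate 1 or 2. The young libraries differed widely at this tile, at 46.5% and 20.4%. The one member called lower after transplantation was chr14:20935001-20936000, at 19.4% ± 6.15 (SD, n = 6) against 40.4% ± 16.6 (SD, n = 3). Its adjusted p was 0.031, and the call was lost without any one of 500 old replicates 1 and 3 and 0-dose replicates 1 and 2.

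**Figure D3:**
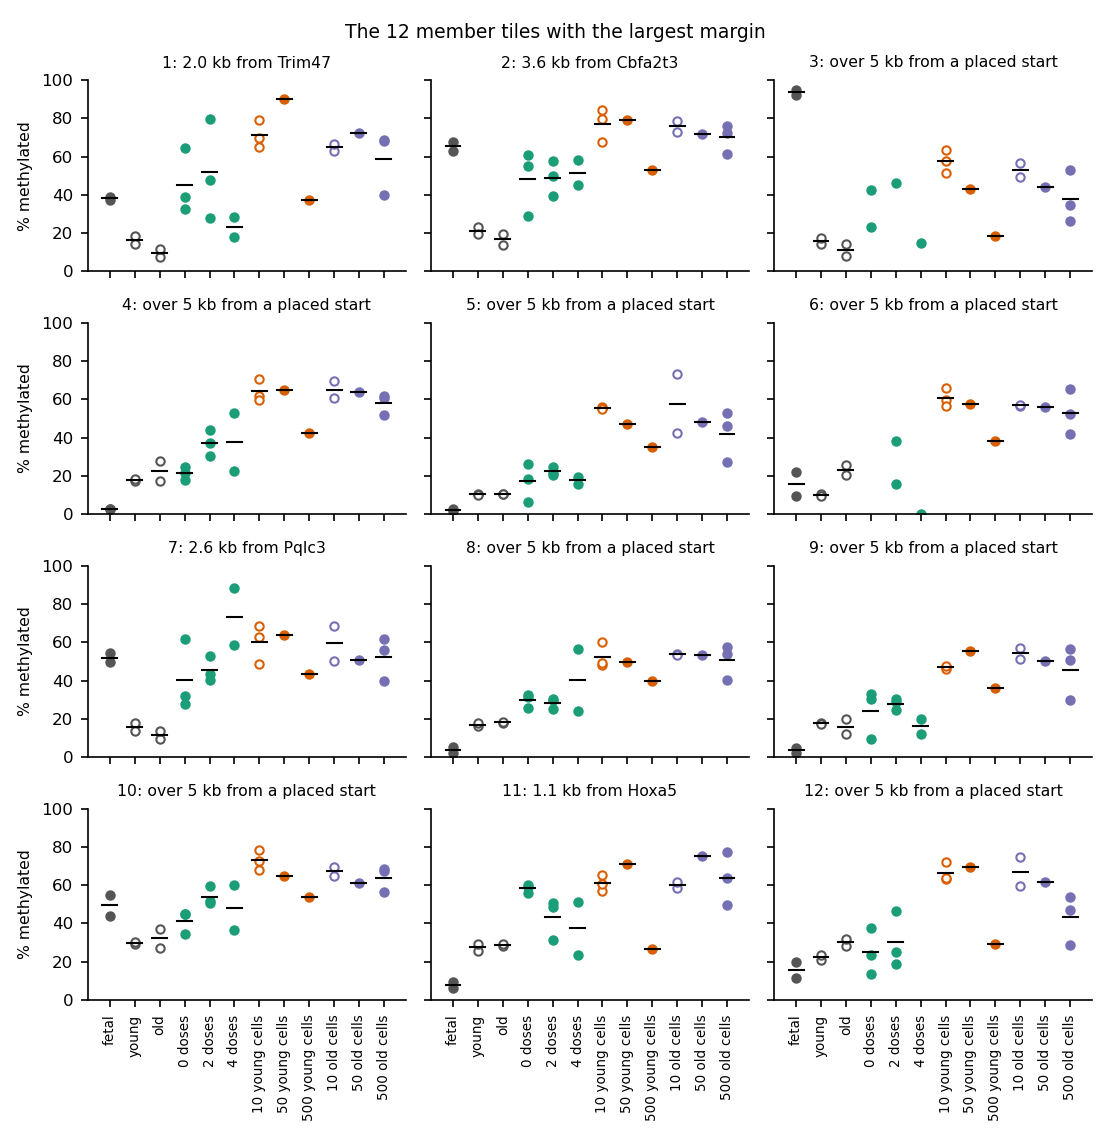
Methylation (percent of reads, vertical) of the 12 member tiles with the largest margins, 1 point for each library by group, numbered by margin. In tile 4 (26 CpGs) the 0-dose libraries lie at 17.8 to 24.5% and the 6 transplanted libraries outside the choice at 42.6 to 65.0%.

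At the Nrsn2 start, the tile chr2:152202001-152203000 was at 4.87% and 3.70% in fetal HSCs, 20.6% and 18.3% in young HSCs and 39.3% and 38.8% in old ones. After 50 cells it was at 58.2% for both donor ages, and after 500 cells at 38.9% (young) and 52.9, 46.5 and 45.7% (old). The 0-dose libraries, at 23.0, 19 and 22.0%, lay below every transplanted library and near the young level. The difference was 29 points (adjusted p = 0.0003) against 0 doses and 45.5 points (adjusted p = 1.3e-07) against fetal HSCs. With the 500 old group alone it was 27.1 points (adjusted p = 0.0078), and not called without replicate 1 of that group (adjusted p = 0.077).

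Along the printed Nrsn2 window the transplanted mean of single CpGs was uneven. Of the CpGs near the start, the one 24 bases before it had a mean of 68.6% after transplantation (50 and 500 cells), 34.2% with 0 doses and 4.30% in fetal HSCs. The CpG 11 bases further upstream, at -35, had 10.9, 5.65 and 0.741%. Those at 21 and 40 bases after the start had transplanted means of 66.4% and 40.8%. CpGs this close share reads, so they are not independent measurements.

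The Palm3 tile, chr8:86545001-86546000, was at 11.5% and 6.38% in fetal HSCs, 14.4% and 18.3% in young HSCs and 39.1% and 28.3% in old ones. The transplanted libraries outside the choice were at 59.5, 39.9, 60.4, 51.3, 56.4 and 39.9%, all above the 0-dose libraries at 34.4, 24.8 and 31.3%. Over the CpGs of the fit the difference from 0 doses was 13.4 points and was not called (adjusted p = 0.11). It was called without 500 old replicate 3 (16.2 points) and without both low libraries (19.1 points, adjusted p = 0.021). The difference from fetal HSCs was 37.0 points (adjusted p = 2.1e-05). Single CpGs differed here too: the one 131 bases before the start was at 54.9% after transplantation (50 and 500 cells) and 23.8% with 0 doses, and the one at -169 at 22.5% and 35.2%. Both tiles were singled out for their place at a start, after their values were seen. Other members touch a placed window. At Ptges, Acot11, Tmie and Als2cl the read CpGs of the window were low. Acot11, a thioesterase gene, had a mean of 7.2% in the transplanted libraries over the CpGs in its window and Tmie, a gene of the inner ear, 0.303%, so the gain of those tiles lay outside the window. At Ptms, a gene of the small acidic protein parathymosin, the 4 read window CpGs had means of 30.4% in these libraries and 5.35% with 0 doses, at low depth. These means weigh different CpGs. With 0 doses the CpG at -191 had 5 or more reads in only 1 library and those at -168 and -164 in none. In the transplanted libraries the CpGs at -191 and -168 had means of 75.8% and 76.1%, and the CpG at -43 was near 0 in both groups. At Gm3973, a predicted gene, the 6 read window CpGs had 35.7% and 22.1%, with overlapping libraries. At Pik3cd, a gene of a leukocyte phosphoinositide kinase subunit, 1 window CpG was read, and at Dzip1 0 were.

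**Figure D4:**
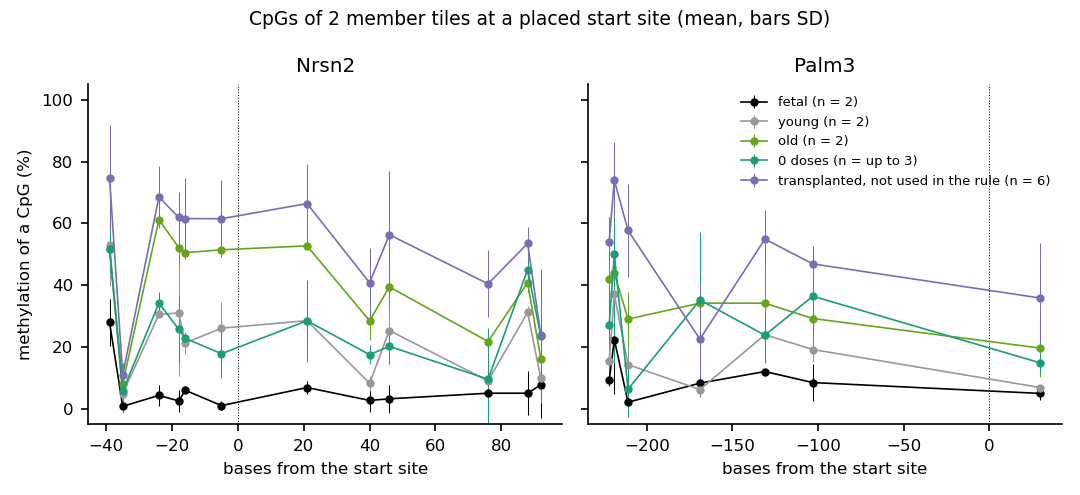
Methylation of single CpGs (percent, mean with SD over the libraries of a group) against distance in bases from the placed start of Nrsn2 and Palm3. At Nrsn2 the transplanted libraries have higher means than the 0-dose, young and fetal groups at each plotted CpG, with the CpG at -35 low in all groups (10.9% after transplantation); at Palm3 the CpG at -169 was lower after transplantation (22.5%) than with 0 doses (35.2%).

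Genes of the lists that fit blood stem cells were looked up within 5 kb of a member. The Hox list had 1 member among 37 tiles within 5 kb of a placed gene of the list (2.70%). The cell cycle list had 1 of 22 (4.55%), the erythroid and megakaryocyte list 1 of 12 (8.33%), the lymphoid list 2 of 58 (3.45%) and the myeloid list 1 of 16 (6.25%). No member was near the DNA methylation enzymes (19 tiles), Polycomb and Trithorax genes (37), developmental transcription factors (143), imprinted genes (19), niche receptors (22) or stem cell transcription factors (34). These counts of 0 to 2 are too small to compare with the 0.216% of all tiles.

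Hoxa5 encodes a homeobox transcription factor of the HoxA cluster. The member chr6:52153001-52154000, 1.1 kb from its start and with 12 CpGs, was at 9.29% and 6.16% in fetal HSCs, 25.7% and 29.3% in young and 28.3% and 29.1% in old HSCs. The 0-dose libraries were at 55.7, 59.2 and 60.3%, overlapping the libraries after 10 young HSCs at 65.5, 57.0 and 60.8%. After 50 cells it was at 71.2% (young) and 75% (old), and after 500 cells at 26.5% (young) and 63.6, 77.4 and 49.8% (old). It was 50.7 points lower in fetal than in 0-dose HSCs (adjusted p = 3.1e-05), the largest such difference of any member, and 52.8 points higher after transplantation than in fetal HSCs (adjusted p = 6.6e-05). Between transplanted and 0-dose libraries the difference was 2.20 points (adjusted p = 0.84).

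Gfi1 encodes a zinc finger repressor of transcription that acts in HSCs and granulocytes. Its member, chr5:108150001-108151000 (24 CpGs, 2.9 kb from the start), followed the same order, with fetal libraries at 5.00% and 8.94%, young at 20.2% and 14.7% and 0-dose libraries at 34.3, 55.3 and 52.3%. The fetal level was 38.2 points below 0 doses (adjusted p = 0.0094), and the transplanted level 43.0 points above fetal (adjusted p = 0.0019). Both calls were lost without fetal replicate 1. The transplanted libraries outside the choice spread from 20.1 to 65.1% and overlapped the 0-dose libraries (difference 4.79 points, adjusted p = 0.74). Without the 2 low libraries after 500 cells the difference was 18.9 points and was called (adjusted p = 0.04).

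Cdkn2a encodes the cell cycle inhibitors p16 and p19Arf. The 4 CpGs of chr4:88939001-88940000, 1.0 kb from its start, were at 9.13% and 10.6% in fetal HSCs, 29.6% and 31.5% in young HSCs and 41.4% and 43.4% in old ones. After 50 cells they were at 54.4% (young) and 52.1% (old) and after 500 cells at 32.8% (young) and 45.7, 57.5 and 46.6% (old), against 35.9, 40.0 and 32.8% with 0 doses. The transplanted mean was 38.3 points above fetal (adjusted p = 4.9e-06), while the 12 points above 0 doses were not called (adjusted p = 0.11). That difference was called at 15.04 points without the 500 young library and at 16.2 points without both low libraries (adjusted p = 0.04).

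Runx3, a transcription factor gene of T cells and other blood lineages, had members at 2.0 and 3.0 kb from its start, which are neighbours and share a region. In the nearer, chr4:134710001-134711000, the transplanted mean was 45.3% ± 7.65 (SD, n = 6) over 3 CpGs, 19.8 points above 0 doses (adjusted p = 0.036) and 28.7 above fetal HSCs (adjusted p = 0.002). The first call was lost without any one of 500 old replicates 1 and 3, the 50 old library and 0-dose replicates 1 and 3, and the second without fetal replicate 1. In the farther, chr4:134711001-134712000, it was 34.3 points above fetal and 7.66 points above 0 doses (adjusted p = 0.27 for the latter). The member 3.6 kb from Cbfa2t3, a corepressor gene of the erythroid and megakaryocyte lineages, was chr8:125198001-125199000. Its difference from 0 doses was 20.7 points (adjusted p = 0.043), but 0-dose replicate 1 at 29% stood below the other two at 55.1% and 60.9%. Without that replicate the difference was 11 points and the call was lost, as it was without 500 old replicate 1 or 2 or either 50-cell library.

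The transplanted libraries outside the choice were also compared with fetal HSCs. Of 169 members, 79 (46.7%) were called higher after transplantation, against 2.27% of all tiles, and 15 lower, against 6.14%. The median difference was 12.8 points (quartiles 0.0 and 30.2) over the members and -2.28 points over all tiles. All 6 libraries lay above both fetal libraries in 80 members (47.3%), against 8.16% of all tiles. Without fetal replicate 1, 47 members were called higher.

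Fetal against 0-dose HSCs gave 38 members called lower in fetal cells, against 1.45% of all tiles, and 14 called higher, against 0.904%. The median difference was -6.67 points over the members and -0.25 over all tiles. Without fetal replicate 1 the calls were 13 lower and 7 higher, and without fetal replicate 2 there were 17 lower. Taken singly, the fetal libraries lay above every 0-dose library in 27.1% and 24.7% of members, against 18.8% and 21.7% of all tiles.

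The members were also split by their fetal level, as a description: the split fixes the fetal values, and the rule favours low values in young and old HSCs. In the 103 members below 20% in fetal HSCs, the fetal median was 8.82%, the young 12.8%, the old 15.7% and the 0-dose median 21.3%. It was 35.4% after 50 young, 39.5% after 50 old, 31.8% after 500 old and 23.8% after 500 young HSCs, the last close to 0 doses. In the 45 members at 50% or more in fetal HSCs, the fetal median was 69.9%, the young 28.4%, the old 25.0% and the 0-dose median 46.7%. It was 63.3% after 50 young, 50.9% after 50 old, 51.2% after 500 old and 36.7% after 500 young HSCs, the last below 0 doses. The members between 20 and 50% in fetal HSCs (63) had a fetal median of 31.5%, a young one of 22.0% and an old one of 22.5%.

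**Figure D5:**
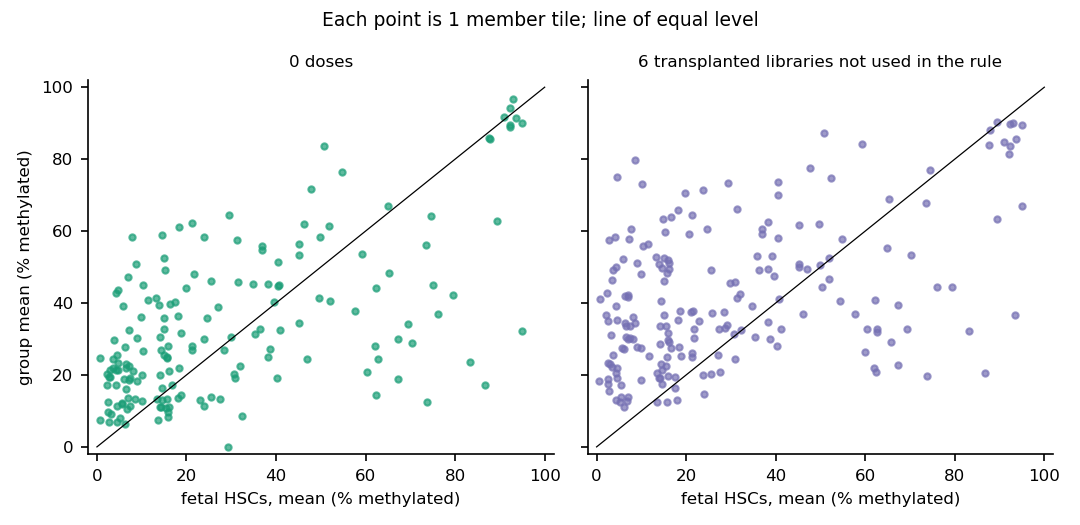
Mean methylation of each member tile (percent) in another group against its mean in fetal HSCs, with the line of equal level. The panels show 0 doses and the 6 transplanted libraries outside the choice. The tile at 86.7% in fetal HSCs and 20.5% after transplantation lies far below the line, and the tile near Mast3 far above it.

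Neighbouring members on chromosome 5, chr5:118886001-118887000 and chr5:118887001-118888000, were among those low in fetal HSCs. Fetal libraries were at 10.1% and 10.3% in one and 7.45% and 9.91% in the other. The transplanted means of 73.1% ± 6.70 and 79.7% ± 5.77 (SD, n = 6) were 62.9 and 71.0 points above fetal HSCs (adjusted p = 8.2e-09 and 2.5e-09). Against 0 doses they were 28.0 and 28.8 points higher (adjusted p = 0.00054 and 0.00042). The placed neighbour, Gm30604, is a predicted gene more than 55 kb away.

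Among those high in fetal HSCs was chr11:90209001-90210000, 42.7 kb from the placed start of Hlf, a transcription factor gene of HSCs. Fetal libraries were at 72.4% and 68.3%, young at 18% and 26.6% and old at 27.3% and 29.3%. The libraries after 50 cells were at 65.4% (young) and 57.9% (old), and those after 500 cells at 36.6% (young) and 56.5, 56.6 and 47.7% (old). The 0-dose libraries were at 37.5, 20 and 29.1%. The transplanted mean was 24.6 points above 0 doses (adjusted p = 0.0058), with the library after 500 young HSCs inside the 0-dose range. Fetal HSCs were 41.5 points above 0 doses (adjusted p = 0.00023).

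In other members high in fetal HSCs the transplanted level was far below the fetal one. At chr14:26453001-26454000 the transplanted mean was 20.5% ± 7.36 (SD, n = 6) and the fetal mean 86.7% ± 6.45 (SD, n = 2), a difference of -66.1 points (adjusted p = 1.3e-06). At chr7:19595001-19596000, 13.4 kb from Foxa3, a forkhead factor gene of endoderm, it was -53.5 points (adjusted p = 9.1e-07), and at chr6:114840001-114841000 it was -54.1 points (adjusted p = 4.2e-07).

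The other member near Hlf, chr11:90242001-90243000 at 9.7 kb, was at 86.5% and 92.2% in fetal HSCs, 54.3% and 58.4% in young and 47.3% and 47.1% in old HSCs. The 6 transplanted libraries outside the choice were at 53.6 to 68.1%, overlapping the young libraries and the 0-dose libraries at 57.8, 53.2 and 77.1%. The transplanted mean was 2.66 points above that of 0 doses (adjusted p = 0.68). It was 24.4 points below fetal HSCs (adjusted p = 0.00082).

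The run of 3 members near Trim47 was not uniform. Its outer tile at 4.0 kb, chr11:115967001-115968000, was at 68.8% and 64.0% in young and 38.6% and 40.3% in old HSCs, and at 83.6 to 90.3% in the 6 transplanted libraries outside the choice. The 0-dose libraries were at 79.9, 82.4 and 88.5% and overlapped them (difference 9.29 points, adjusted p = 0.087; called at 13.4 points without 0-dose replicate 3). The tile nearest the start, chr11:115970001-115971000, was at 19.7 to 35.6% after transplantation and 17.2 to 23.7% with 0 doses. A pair near Mars1, a gene of a methionyl-tRNA synthetase, at chr10:126763001-126764000 and chr10:126764001-126765000, had fetal levels of 4.22% and 4.65% and of 18.9% and 23.6%. The transplanted means were 34.9 and 43.8 points above fetal (adjusted p = 4.6e-05 and 0.0033), the latter not called without fetal replicate 1. Against 0 doses the first was 13.8 points higher and not called (adjusted p = 0.1), but called at 22.0 points without the 2 low libraries, at 16.3 points without the 500 young library and at 17.9 points without 500 old replicate 3.

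The neighbour of the 26-CpG tile on chromosome 8, chr8:87310001-87311000, completes the third run by margin. Fetal libraries were at 3.31% and 5.13% there, and the transplanted mean was 50.2 points above them in the fit (adjusted p = 6.1e-06). Against 0 doses the difference was 9.40 points (adjusted p = 0.35).

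Fetal HSCs stood far below 0 doses at 2 further members. At chr11:76250001-76251000, 37.9 kb from Nxn, a gene of a thioredoxin-like protein, the fetal libraries were at 15.6% and 13.6% and the 0-dose libraries at 50.0, 56.1 and 70.8% (difference -44.5 points, adjusted p = 0.00046). At chr5:77551001-77552000, 27.2 kb from Hopx, a gene of a homeodomain-only protein found in several stem cell types, the fetal libraries were at 16.9% and 19.7%. Those with 0 doses were at 44.3, 82.5 and 56.4% (difference -43.8 points over 3 CpGs, adjusted p = 0.0072). The second call was lost without either fetal library.

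5-FU doses were compared with 0 doses in a fit of the 8 libraries of that treatment, over 58872 tiles and 118 members. With 2 doses, 0 members were called higher (0.0% of all tiles) or lower (0.0017% of all tiles, 1 tile). The median difference was 1.5 points over members and -0.51 over all tiles, and 9 members had an unadjusted p below 0.05, against 3.44% of all tiles. With 4 doses, 0 members were called in either direction (0.0% of all tiles higher and 0.0% lower). The median difference was -1.06 points over members and 0.0 over all tiles, and 14 members had an unadjusted p below 0.05, against 6.44% of all tiles. Limma called 0 members in either comparison.

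Singly, the 2-dose libraries lay above every 0-dose library in 26.2, 34.9 and 37.3% of members, against 21.1, 15.6 and 25.0% of all tiles. The 4-dose libraries did so in 15.1% and 33.3% of members, against 28.7% and 36.5% of all tiles. The 4-dose share was thus below that of all tiles in replicate 1 and near it in replicate 2.

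At chr8:87308001-87309000 the 2-dose libraries were at 37.3, 44.0 and 30.3%, each above the 0-dose range of 17.8 to 24.5%, and the 4-dose libraries at 22.4% and 52.9%. Over the 9 CpGs of that fit the difference with 2 doses was 22.9 points, not called (adjusted p = 0.98). At the Hoxa5 tile the 2-dose libraries, at 31.4, 50.6 and 48.5%, and the 4-dose libraries, at 23.5% and 51.3%, all lay below the 0-dose libraries. The differences of -16.4 and -21.7 points were not called (adjusted p = 1 and 0.75). At the Nrsn2 tile the 2-dose libraries were at 29.3, 22.1 and 14.51% and the 4-dose libraries at 26.1% and 41.1%. The call threshold was reached by almost no tile of the whole table in these comparisons, so the absence of calls among the members does not show that their levels were alike.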

How the data were processed

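Per the labels' protocols the libraries are reduced representation bisulfite sequencing. The deposited files list, for each CpG and strand, methylated over total reads and a score, which is the same share times 1000 as the authors wrote it. Build mm9 is named in the submitters' processing notes; aligner and caller: not given in the sources used here. From the reads, levels were computed over 1000-base tiles with at least 3 CpGs of at least 5 reads. The members and gene lists were chosen with earlier results of these data known. Tests were quasi-binomial fits with Williams weights, moderated dispersion held at 1 or more and Benjamini-Hochberg adjustment over all tiles (numpy 2.4.6, scipy 1.17.1, pandas 2.3.3, Python 3.11.15). They were run on simulated reads with the same fixed spread between libraries in every fit. In the data the estimated spread parameter was 0.0112 and 0.0108 in the fits with transplanted libraries and 0.0209 in the 5-FU fit. The simulation thus does not cover the wider spread of the 5-FU fit. Limma 3.58.1 in R 4.3.3 on log2 ratios with a pseudocount of 0.5 was an alternative. Of 32851 RefSeq windows, 9027 were placed by at least 7 matched CpGs, a lead of 2 over the second place and listing in at least 5 libraries; 99.6% fell on RefSeq's chromosome. Tiles named are the 12 with the largest margins, the 3 called members with the largest difference in each direction of each comparison, the longest runs, those at the threshold and those within 5 kb of a listed gene; others were named after their values were seen.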

Additional observations from a re-analysis of the deposited data

Results flagged for a closer look

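On chromosome X, which the rule leaves out, 498 of 4484 tiles (11.1%) met the same margins, against 0.216% of autosomal tiles. The labels used here give no sex of donors or recipients. The share of X tiles between 20 and 80% methylated was 8.79 to 14.3% in the untransplanted libraries and 30.3 to 37.2% after 10 cells. It was 26.6% after 50 young HSCs, 31.7% after 50 old HSCs, 17.1% after 500 young HSCs and 26.1, 27.2 and 18.1% after 500 old HSCs. Of 37 group values of 4 or more libraries tested for a single library far from the others, 0 were flagged. Chance alone gives about 1 in 20. The test set the gap to the nearest library against the range, so libraries lying close together hide each other. Low libraries close to each other, as after 500 young and 500 old HSCs (member medians 29.2% and 29.7%), could thus not be flagged. The count of 0 does not show that no library stood apart.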

How the results depend on the processing

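The number of members was 384 with a margin of 5 points, 116 with 12 points, 108 with at least 5 CpGs, 713 with chromosome X and 238 to 317 without 1 library of the choice. The fetal median of 20.3% became 17.3% over CpGs read in all libraries, 22.0% as a mean of CpG levels and 23.4% with the library offset removed. The median after 500 young HSCs, 29.2%, became 34.5% with the offset removed, and that of 500 old replicate 3, 29.7%, became 33.8%. The medians of the 50 young and 50 old libraries became 41.8% and 41.0%, and those of 500 old replicates 1 and 2 became 39.0% and 40.5%. Members called higher after transplantation than with 0 doses (39) numbered 22 at a difference of 20 points, 17 in the fit of all 25 libraries, 61 without the 2 low libraries and 22 to 45 without single libraries. Those called lower (1) numbered 3 with limma, 2 with the offset removed, 2 with the replicate block, 0 in the fit of all 25, 0 without the 2 low libraries and 0 to 2 without single libraries. Against fetal HSCs, 47 to 82 were called higher without single libraries and 10 to 16 lower, with 9 lower in the fit of all 25. For 500 old HSCs, 10 were called higher with 10 reads per CpG and 8 in the fit of all 25; without single libraries it was 1 to 29 higher and 0 to 1 lower. For fetal HSCs against 0 doses, 21 were lower in the fit of all 25, and without single libraries 13 to 40 were lower and 7 to 19 higher. Replicate numbers did not pair the libraries (correlations of same-numbered libraries -0.07 to 0.04). With the replicate number as a block the calls higher were 28 against 0 doses, 92 against fetal, 12 for 500 old HSCs and 0 for both 5-FU comparisons. Among the recomputed differences of single named tiles, 114 lost their call and 38 gained one. No difference called in the main fit or in the alternative reversed its direction, and changes of sign between uncalled differences were not counted. Of 2108 recomputed values, 1921 were counted as the same. For named tiles this meant the same side of the call threshold, for counts a set ratio and for levels a set spread. Depth limits tiles with few CpGs: 46 members could not be tested against 0 doses and 97 not in the 5-FU fit.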
